A study of Mus musculus with 12 samples.

Results

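The Frizzled proteins and the co-receptors Lrp5 and Lrp6 receive Wnt signals at the cell surface. Their 10 genes Fzd1 to Fzd8, Lrp5 and Lrp6 were chosen by name, with earlier results of these data known. Each was found under 1 Ensembl gene among the 38293 genes of the deposited table. All 10 were among the 13964 genes that passed the filter on low counts and were tested. Their transcripts were described in the ventricles of mouse embryos at stage E15.5, in 4 genotypes with 3 pools of 4 pairs of ventricles each. The Mib1 mutant carried the stop allele R530X of Mib1 over a loxP-flanked (flox) allele, with 1 copy of Tnnt2-Cre. Its control, the Cre control, carried the flox allele over a normal Mib1 allele and the same Tnnt2-Cre. The triple heterozygote carried R530X, V150I of Apcdd1 and a missense allele of Asxl3, each over a normal allele, with neither flox nor Cre. The labels name the Asxl3 allele M1415V in the genotype and M1361V in the protocol. Its control was wild type (WT). Mib1 encodes a ubiquitin ligase that cells presenting Notch ligands need, Apcdd1 a membrane inhibitor of Wnt signalling, while Asxl3 works with BAP1, a deubiquitinase of the Polycomb pathway.

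Tnnt2-Cre acts in cardiomyocytes, so the other cells of a Mib1 mutant ventricle keep the flox allele intact and carry the stop allele, and cardiomyocytes of the Cre control lose 1 copy of Mib1. The stage of the WT and Cre control pools is given in the protocol alone. In these bulk pools, fewer cells of a type and less RNA per cell cannot be told apart. Whether pools shared litters is not stated, so the p-values measure the spread between pools.

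Wnt ligands bind the cysteine-rich outer domain of a Frizzled, a receptor with a bundle of membrane-spanning helices, and Frizzled then recruits Dishevelled inside the cell. When Lrp5 or Lrp6 joins the complex, its phosphorylated tail draws in Axin and beta-catenin is spared from destruction. Without Lrp, Frizzled can act through the planar cell polarity branch. Wnt signalling is known in heart development for its part in progenitor growth, outflow tract and valve formation and cardiomyocyte division. By sequence, Fzd1, Fzd2 and Fzd7 form a subfamily, Fzd5 and Fzd8 another and Fzd3 and Fzd6 one more, while Fzd4 stands closer to Fzd9 and Fzd10 and also binds Norrin. In mice, Fzd1 and Fzd2 share a role in closure of the ventricular septum and the palate, and Fzd3 and Fzd6 a role in planar polarity.

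The sequences below show the part of the gene that encodes the Dishevelled contact. Each is 42 bases of the coding strand, read from GENCODE release M21 transcripts on GRCm38, and the capitals mark the codons of the tail motif: lysine, threonine, any 3 amino acids and tryptophan.
Fzd1 (chr5:4755694-4755735, minus strand): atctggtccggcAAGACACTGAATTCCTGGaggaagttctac
Fzd2 (chr11:102606361-102606402, plus strand): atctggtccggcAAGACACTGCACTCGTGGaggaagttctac
Fzd7 (chr1:59484595-59484636, plus strand): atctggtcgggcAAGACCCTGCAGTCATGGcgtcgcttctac
Fzd5 (chr1:64734999-64735040, minus strand): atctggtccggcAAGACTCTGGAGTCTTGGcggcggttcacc
Fzd4 (chr7:89408229-89408270, plus strand): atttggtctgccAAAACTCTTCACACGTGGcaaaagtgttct
Fzd3 (chr14:65212095-65212136, minus strand): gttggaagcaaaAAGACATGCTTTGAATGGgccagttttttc
Fzd6 (chr15:39033937-39033978, plus strand): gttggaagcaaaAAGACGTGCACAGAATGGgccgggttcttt

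All 8 Frizzleds held the motif exactly 1 time (Fzd8 is not shown), against 456 of 21850 coding genes (2.09%) that held it anywhere in the reading frame. Fzd1 and Fzd2 shared 39 of the 42 bases, and Fzd3 and Fzd6 shared 34. Fzd7 shared 32 with Fzd1, 33 with Fzd2 and 34 with Fzd5, while Fzd5 shared 33 with both Fzd1 and Fzd2, so this window did not set Fzd5 apart from the subfamily of Fzd1, Fzd2 and Fzd7. Fzd4 shared 24 to 28 bases with these 4 genes, and Fzd3 and Fzd6 shared 14 to 18 with the other 5 shown. From the first motif codon to the last codon were 23 codons in Fzd1, Fzd2 and Fzd7, 39 in Fzd4, 61 in Fzd5, 80 in Fzd8, 165 in Fzd3 and 212 in Fzd6. Likeness between genes bears on counting, since reads of 60 bases that match 2 genes are divided by RSEM. The longest runs of identical bases were 47 between Fzd1 and Fzd2, 47 between Fzd1 and Fzd7 and 38 between Fzd2 and Fzd7, all shorter than a read. No stretch of 60 bases of any Frizzled or of Lrp5 occurred in a transcript of another gene, and 56 of the 13723 stretches of Lrp6 (0.408%) did.

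The libraries held 10103548 to 22157720 estimated reads, with the triple heterozygote pool 2 highest and the others at or below 14774121. The sparsest receptor, Fzd3, had 60 to 155 reads per library and Lrp6 795 to 1665. Mib1 itself was read as a check on R530X alone. It cannot tell the groups that carry R530X from each other or show the Asxl3 and Apcdd1 alleles. It had 54.8, 50.1 and 51.8 CPM (reads scaled to a common library size, here with TMM factors) in the Mib1 mutant and 108, 107 and 101 CPM in the Cre control (log2 fold change -1.01, SE 0.09, edgeR adjusted p = 4.75e-05). It had 74.0, 57.9 and 74.1 CPM in the triple heterozygote and 145, 126 and 136 CPM in WT (-0.99, SE 0.09, edgeR adjusted p = 0.000276). Defining cardiomyocyte genes were abundant in every pool, with 40900 to 55900 CPM summed over 11 markers, while 7 liver markers summed to 0.58 to 23.2 CPM. The Mib1 mutant pool 1 and the Cre control pool 1 had almost no Xist (0.095 and 0.387 CPM, against 71.5 to 458 CPM elsewhere), so the sex of the pools was not balanced.

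Per length, Fzd2 was the most abundant Frizzled transcript in each of the 4 genotypes, and Fzd1 came after it. To set genes of different length side by side, CPM was divided by the length of the merged exons. On this scale Fzd2 (chr11:102604396-102608058, a gene with 1 exon and 3663 exonic bases) had 22.8 ± 1.31 CPM per kb in the Mib1 mutant, 14.7 ± 0.154 in the Cre control, 14.8 ± 2.07 in the triple heterozygote and 14.1 ± 0.573 in WT (SD, n = 3 each). Fzd1 (chr5:4753839-4758035, also 1 exon) had 16.3 ± 2.46, 12.9 ± 0.546, 12.9 ± 0.307 and 12.4 ± 0.602 CPM per kb in the same genotypes. The pools of Fzd2 and Fzd1 did not overlap in the Mib1 mutant, the Cre control or WT, and did overlap in the triple heterozygote. This separation rests on the division by length, since in CPM the pools of Fzd2 and Fzd1 overlapped in every genotype. The mean CPM of Fzd2 and Fzd1 was 54 and 54.2 in the Cre control and 51.6 and 52.2 in WT.

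The co-receptor Lrp6 came next in each genotype, at 7.02 ± 1.16 CPM per kb in the Mib1 mutant, 5.95 ± 0.708 in the Cre control, 5.92 ± 0.633 in the triple heterozygote and 7.04 ± 0.64 in WT. Fzd6, Fzd4 and Lrp5 lay just below it, between 4.42 and 6.57 CPM per kb as group means, and several of these neighbours overlapped. Lrp6 exceeded Lrp5 per length by 1.19, 1.23, 1.23 and 1.39 times in the Mib1 mutant, the Cre control, the triple heterozygote and WT. Fzd8 followed with 2.65 to 4.24 CPM per kb, then Fzd7 with 2.1 to 2.63 and Fzd5 with 1.91 to 2.09. Fzd7 and Fzd5 overlapped in the Cre control, the triple heterozygote and WT but not in the Mib1 mutant. Fzd3 was lowest, at 0.658 ± 0.193, 0.522 ± 0.128, 0.582 ± 0.0802 and 0.612 ± 0.127 CPM per kb. The order depended on the length used. Over all pools, the highest gene stood 28.0-fold above the lowest by exonic length and 9.36-fold by coding length, and by coding length Fzd4 moved up to rank 3, while Fzd2, Fzd1 and Fzd3 kept the first, second and last places.

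**Figure D1:**
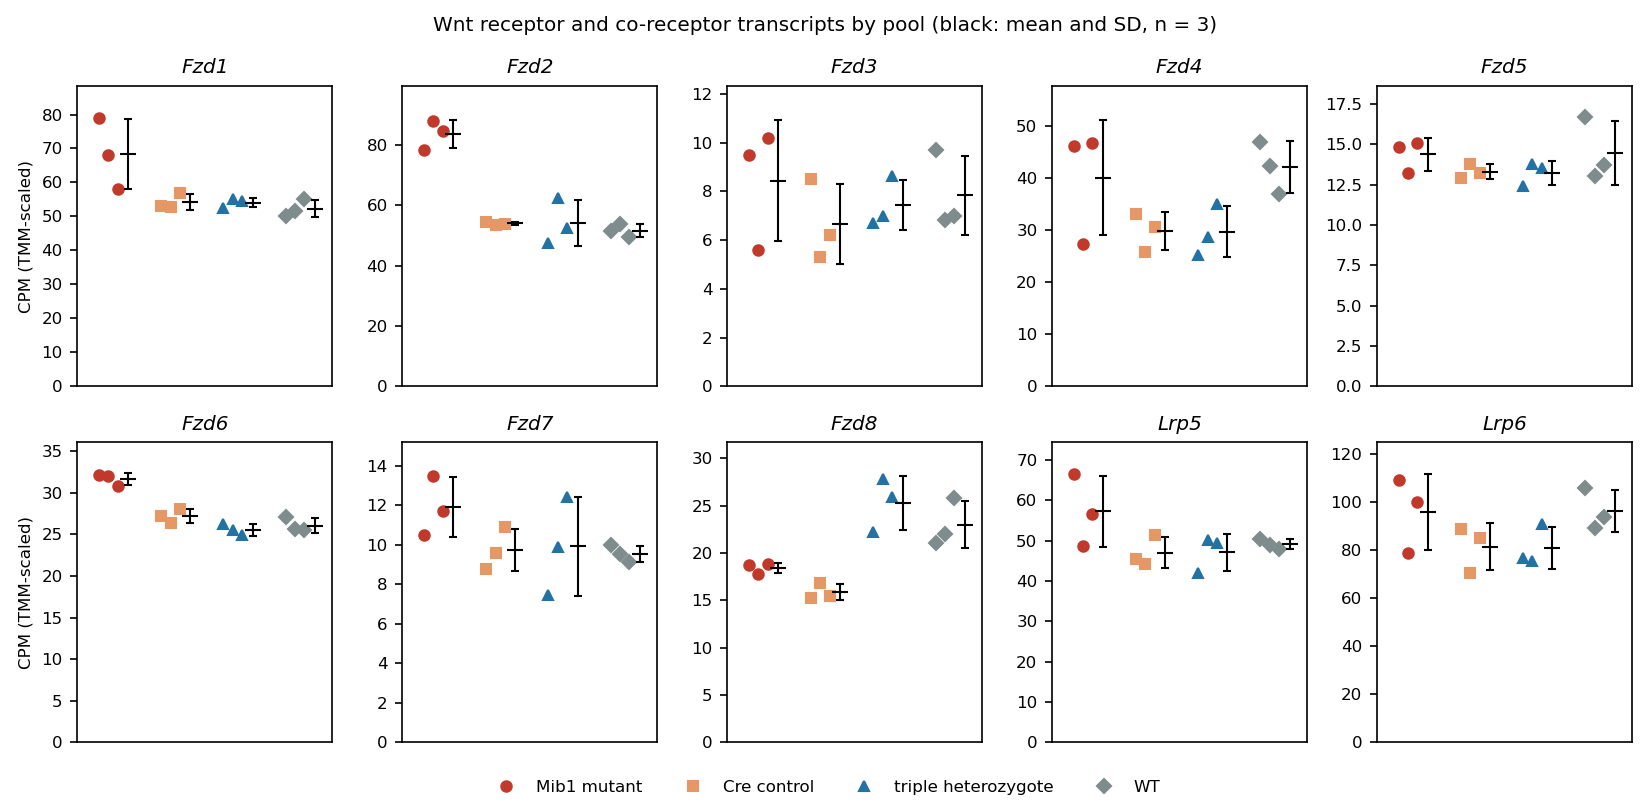
Level of each Wnt receptor and co-receptor gene in CPM (linear axis from 0, on TMM-scaled library sizes), with 1 symbol per pool and the mean and SD of 3 pools in black. The 3 Mib1 mutant pools of Fzd2 lie at 78.4 to 87.8 CPM, above all 9 other pools, and Fzd8 is lowest in the Mib1 mutant and Cre control pools.

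Of the 10 receptor genes, Fzd2 rose in the Mib1 mutant. It had 78.4, 87.8 and 84.6 CPM in the Mib1 mutant pools and 54.6, 53.5 and 53.8 CPM in the Cre control pools. Each mutant pool was above each control pool, and the Cre control pools lay within the range of the triple heterozygote (47.5, 62.5 and 52.5 CPM) and close to WT (51.3, 53.8 and 49.6 CPM). The log2 fold change was 0.63 (SE 0.09, 95% interval 0.44 to 0.82), which is 1.55-fold, and the p of edgeR's quasi-likelihood test, adjusted over all genes tested (Benjamini-Hochberg), was 0.00164. That is 1 of 10 receptor genes past the threshold of 0.05, where 1.5% of all tested genes passed it, 0.909% upward. Fzd2 passed in every alternative that was run.

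The other 9 receptor genes had positive log2 fold changes that did not pass. Over the 10 genes the median was 0.28 and 10 were positive, where over all tested genes the median was 0 and 51.2% were positive. At an unadjusted p under 0.05 there were 5 of the 10, where 14% of all tested genes lay under it. Fzd1, Fzd2, Fzd6 and Fzd8 had mutant pools that all exceeded the control pools, where 8.86% of tested genes did.

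Fzd1, the near relative of Fzd2, had 78.9, 68 and 58.2 CPM in the Mib1 mutant and 53.1, 52.7 and 56.9 CPM in the Cre control. The mutant pools were scattered but all above the controls, and the log2 fold change of 0.33 (SE 0.09) did not pass (edgeR adjusted p = 0.098). Without the Mib1 mutant pool 3, whose Fzd1 level was nearest to the controls, it was 0.43 and passed (edgeR adjusted p = 0.021), and without the Mib1 mutant pool 1, whose level was highest, it was 0.21 (edgeR adjusted p = 0.362). Fzd7, the other gene of the subfamily, had 10.5, 13.5 and 11.7 CPM in the Mib1 mutant and 8.79, 9.57 and 10.9 CPM in the Cre control, with overlapping pools (0.29, SE 0.17, edgeR adjusted p = 0.478).

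Fzd6, which acts with Fzd3 in planar polarity, was among the least variable. It had 32.2, 32 and 30.8 CPM in the Mib1 mutant and 27.2, 26.4 and 28.1 CPM in the Cre control. The groups were separate, but the log2 fold change of 0.22 (SE 0.07) did not pass (edgeR adjusted p = 0.168). Lrp5 had 66.4, 48.8 and 56.6 CPM in the Mib1 mutant and 45.4, 44.3 and 51.5 CPM in the Cre control, and the pools overlapped (0.28, SE 0.11, edgeR adjusted p = 0.232). Fzd5, with 13.2 to 15.1 CPM in the Mib1 mutant and 12.9 to 13.8 CPM in the Cre control, had the smallest difference of the 10 genes, 0.11 with a 95% interval of -0.14 to 0.36.

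Markers of cell types moved beside these values. Of 11 fibroblast and mesenchyme markers, 11 had positive log2 fold changes in the Mib1 mutant (median 0.23), and their summed level was 6020 to 7450 CPM in the Mib1 mutant and 5500 to 5720 CPM in the Cre control. None of them was called by edgeR, DESeq2 or limma-voom, and 3 had an unadjusted p under 0.05, where 14% of all tested genes did. Of 11 cardiomyocyte markers, 9 were negative (median -0.23), with sums of 40900 to 49900 CPM in the Mib1 mutant and 50400 to 55900 CPM in the Cre control. Here edgeR and limma-voom called none, and DESeq2 called 2, where it called 417 of all 13964 tested genes. An unadjusted p under 0.05 was found for 7 of the 11, beside the same 14% of all tested genes. Of 9 epicardial markers 8 were positive and Krt18 rose, with sums of 209 to 239 CPM in the Mib1 mutant and 180 to 195 CPM in the Cre control. The 9 mural and smooth muscle markers summed to 1820 to 2480 CPM and 1890 to 1970 CPM, and Tagln rose. Of 10 leukocyte markers 9 were negative and C1qb and Lyz2 fell, with sums of 63.4 to 87.8 CPM in the Mib1 mutant and 94.2 to 114 CPM in the Cre control. The 11 endothelial and endocardial markers summed to 1300 to 1510 CPM in the Mib1 mutant and 1340 to 1430 CPM in the Cre control, with a median log2 fold change of 0.03. Of 9 erythroid markers 8 were negative (median -0.23), with sums of 3580 to 4870 CPM in the Mib1 mutant and 4480 to 5140 CPM in the Cre control. In these lists edgeR called 1 epicardial, 1 mural and 2 leukocyte markers, where it called 1.5% of all tested genes. An unadjusted p under 0.05 was found for 4 of 9 epicardial, 4 of 9 mural and 6 of 10 leukocyte markers. It was found for 2 of 11 endothelial and 3 of 9 erythroid markers, beside the same 14% of all tested genes. No marker of these lists was at 0 in a group mean. The part of these shifts in the receptor values was not tested.

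**Figure D2:**
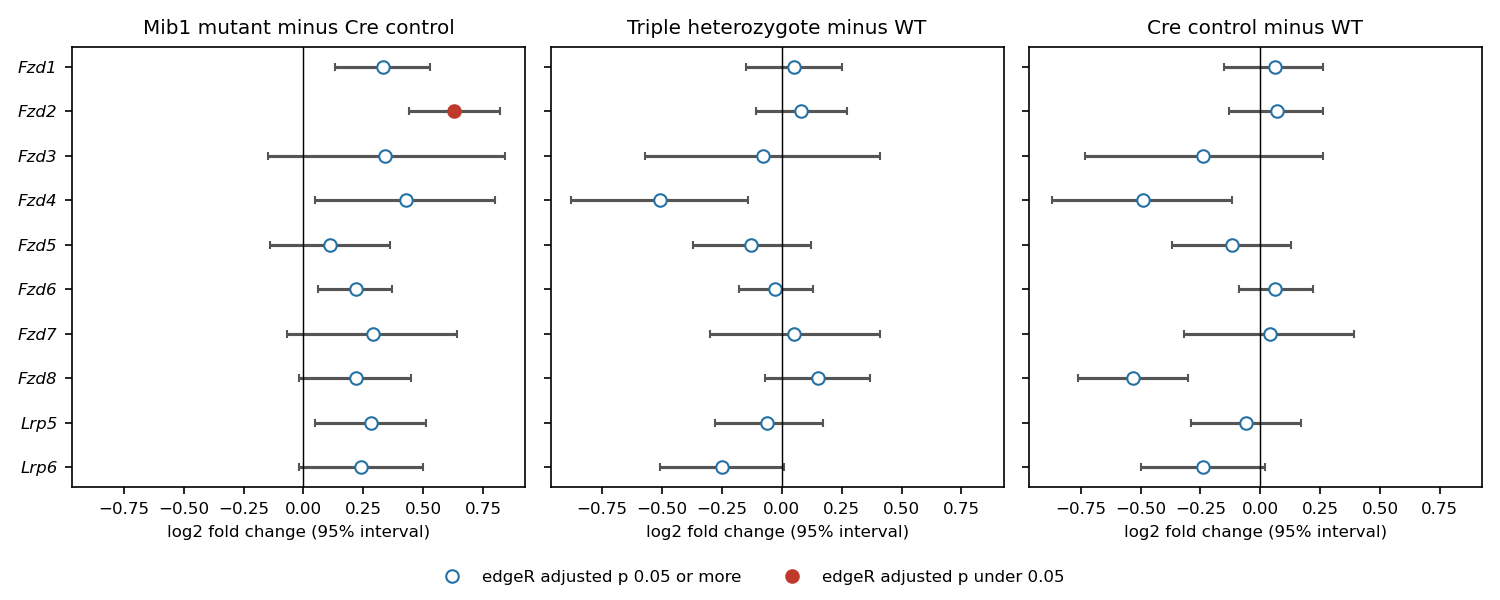
Log2 fold change of each receptor gene with its 95% interval, for the Mib1 mutant over the Cre control (left), the triple heterozygote over WT (middle) and the Cre control over WT (right). The filled point, Fzd2 at 0.63 in the left panel, passed edgeR's adjusted p of 0.05, and the 10 values in the left panel all lie right of 0.

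In the triple heterozygote no receptor gene passed the threshold against WT. The count was 0 of 10 in edgeR, DESeq2 and limma-voom, where 0.0215% of all tested genes passed in edgeR, and 1 of 10 had an unadjusted p under 0.05, where 8.66% of tested genes did. Of the 10 log2 fold changes 4 were positive, with a median of -0.04. Fzd2 differed by 0.08, with a 95% interval of -0.11 to 0.27, Fzd1 by 0.05 (-0.15 to 0.25) and Lrp5 by -0.06 (-0.28 to 0.17). The gene with the unadjusted p under 0.05 was Fzd4, a receptor for both Wnt and Norrin known for its role in vessel growth. It had 25.3, 28.8 and 35 CPM in the triple heterozygote and 47, 42.4 and 37 CPM in WT. The groups did not overlap, as in 9.19% of tested genes in that direction, and the log2 fold change of -0.51 (SE 0.17) did not pass (edgeR adjusted p = 0.559). Red cell transcripts moved beside these values. All 9 erythroid markers were positive (median 0.63), with sums of 7170 to 8380 CPM in the triple heterozygote and 4410 to 5180 CPM in WT. Of them edgeR called 2, the near-identical alpha globin genes Hba-a1 and Hba-a2. DESeq2 called 5, where it called 28 of all 13964 tested genes. The part of this shift in the receptor values was not tested.

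The effects in the Mib1 mutant and the triple heterozygote were also set against each other. The difference of log2 fold changes, Mib1 mutant effect minus triple heterozygote effect, was positive for 10 of the 10 genes (median 0.31), and 49.7% of all tested genes were positive. For Fzd2 it was 0.55 (SE 0.13, edgeR adjusted p = 0.0773), for Fzd4 0.93 (SE 0.25, edgeR adjusted p = 0.137) and for Lrp6 0.49 (SE 0.17, edgeR adjusted p = 0.252). No receptor gene passed in edgeR or limma-voom, where 0.516% of all genes did in edgeR, and 5 of 10 had an unadjusted p under 0.05, where 13.8% of tested genes did. DESeq2 called 2, Fzd2 (0.54, adjusted p = 0.0164) and Fzd4 (0.92, adjusted p = 0.0235), where it called 167 of all 13964 tested genes. Without the triple heterozygote pool 2, Fzd2 passed in edgeR (0.68, adjusted p = 0.0199), and without the Mib1 mutant pool 2, Fzd4 did (1.14, adjusted p = 0.00848). Over the 12 fits that left out 1 pool, Fzd2 ran from 0.47 to 0.68 (edgeR adjusted p up to 0.201) and Fzd4 from 0.79 to 1.14 (edgeR adjusted p up to 0.348), and neither passed in the other 11. The 9 erythroid markers moved the other way in this comparison, with 9 negative (median -0.87) and 5 called lower, and their part in the receptor values was not tested.

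Fzd4, Lrp6 and Fzd3 varied between pools of the same genotype. Fzd4 had 46.3, 27.3 and 46.7 CPM in the Mib1 mutant, 33.2, 25.9 and 30.6 CPM in the Cre control, and the values given above in the triple heterozygote and WT. The Mib1 mutant pool 2 stood apart from the other two, and without it the Mib1 mutant effect of 0.43 (SE 0.18, edgeR adjusted p = 0.279) was 0.64 and passed (edgeR adjusted p = 0.025). Without the Mib1 mutant pool 1 or 3 it was 0.30, and the edgeR adjusted p ran up to 0.676 over the 6 fits that left out 1 pool. Lrp6, the longest of the 10 transcripts (chr6:134446476-134566965, 13672 exonic bases), had 109, 78.6 and 99.9 CPM in the Mib1 mutant, 88.7, 70.4 and 85.1 CPM in the Cre control, 76.6, 75.3 and 90.9 CPM in the triple heterozygote and 106, 89 and 93.6 CPM in WT. The Mib1 mutant pool 2 was again low, and so were the Cre control pool 2 and the triple heterozygote pools 1 and 2. Fzd3 (chr14:65192449-65262463, 12804 exonic bases) had 9.5, 5.59 and 10.2 CPM in the Mib1 mutant and 8.5, 5.31 and 6.22 CPM in the Cre control, again lowest in the pools numbered 2.

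A long-transcript index was computed for each library after this was seen. It is the mean centred log2 CPM of the longest tested genes (from 7632 exonic bases, 2760 genes) minus that of the shortest (up to 2420 exonic bases, 2762 genes), with the receptor genes left out. The index was 0.14, -0.12 and 0.16 in the Mib1 mutant pools, 0, -0.26 and -0.03 in the Cre control, -0.09, -0.15 and 0.05 in the triple heterozygote and 0.22, 0.02 and 0.06 in WT. The lowest value was that of the Cre control pool 2 and the highest that of the WT pool 1.

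With the index as a covariate beside the 4 genotypes, 3 of the 10 receptor genes had a slope past the threshold, where 6.65% of tested genes had a rising one. Since the index was made after Fzd4, Lrp6 and Fzd3 were seen to be low in some of these pools, their slopes describe them and are not independent support. The slope per SD of the index was 0.34 log2 for Fzd3 (SE 0.07, edgeR adjusted p = 0.00658), 0.26 for Fzd4 (SE 0.05, edgeR adjusted p = 0.00467) and 0.19 for Lrp6 (SE 0.03, edgeR adjusted p = 0.000996). Fzd2 had a slope of -0.04 (edgeR adjusted p = 0.558), Fzd5 of 0.06 (edgeR adjusted p = 0.527) and Lrp5 of 0.09 (edgeR adjusted p = 0.23). With 6720 exonic bases, Fzd4 was below the length range of the longest genes. It was also shorter than Fzd5 (6915) and Lrp5 (9738), so the slopes did not follow exonic length gene by gene. In that fit the Mib1 mutant effect was 0.68 for Fzd2 (SE 0.09, edgeR adjusted p = 0.00134), 0.12 for Fzd4 in place of 0.43, 0.02 for Lrp6 in place of 0.24 and -0.05 for Fzd3 in place of 0.34. The triple heterozygote effect on Fzd4 was -0.2 in place of -0.51. The difference between the 2 effects was 0.32 for Fzd4 in place of 0.93, and 0.65 for Fzd2 in place of 0.55 (edgeR adjusted p = 0.11). Since the group means of the index differed (0.06 in the Mib1 mutant, -0.1 in the Cre control, -0.06 in the triple heterozygote and 0.1 in WT), genotype and library property cannot be fully told apart for Fzd4, Lrp6 and Fzd3.

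**Figure D3:**
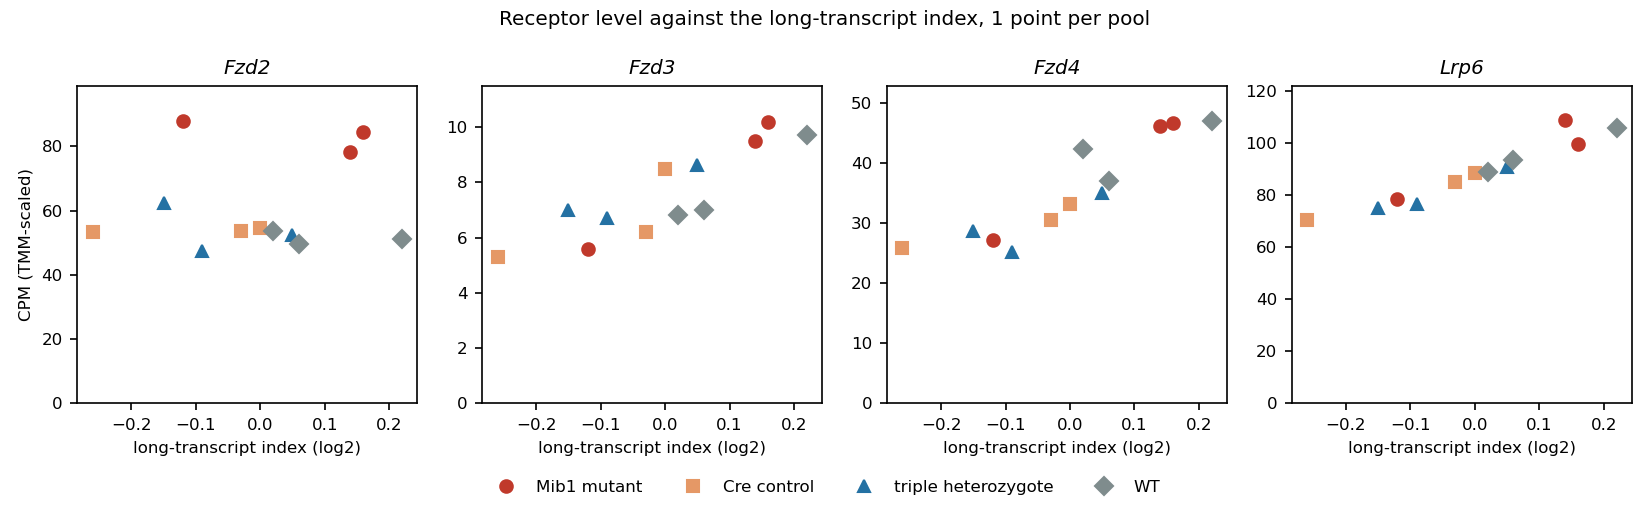
Level of Fzd2, Fzd3, Fzd4 and Lrp6 in CPM (linear axis from 0) against the long-transcript index of the library (log2), 1 symbol per pool. Lrp6 and Fzd4 climb with the index across all 4 genotypes, while the 3 Mib1 mutant pools of Fzd2 stay at 78.4 to 87.8 CPM at either end of it.

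Fzd8 differed along another line. It had 18.7, 17.8 and 18.8 CPM in the Mib1 mutant and 15.3, 16.8 and 15.49 CPM in the Cre control, against 22.2, 27.8 and 25.9 CPM in the triple heterozygote and 21.1, 22 and 25.8 CPM in WT. All 6 pools with the flox allele and Tnnt2-Cre lay at 15.3 to 18.8 CPM, below all 6 others at 21.1 to 27.8 CPM. Such a separation with the flox and Cre pools lower was found in 47 tested genes (0.337%). Between the control groups the log2 fold change, Cre control minus WT, was -0.53 (SE 0.11, 95% interval -0.76 to -0.3), and it missed the threshold (edgeR adjusted p = 0.0541). DESeq2 called it (adjusted p = 0.0146), where it called 82 of all 13964 tested genes. No other receptor gene passed in that comparison in edgeR, DESeq2 or limma-voom, where edgeR called 0.279% of all tested genes. An unadjusted p under 0.05 was found for 2 of the 10 receptor genes, Fzd8 and Fzd4, where 8.43% of tested genes had one. Without 1 of the pools in turn the value was -0.59 to -0.44 (edgeR adjusted p 0.0902 to 0.271), and with the long-transcript index as a covariate it was -0.58 (edgeR adjusted p = 0.11). Fzd8 lies on chromosome 18 at 9212163 to 9218136, 1.51 Mb from the start of Mib1, the gene that carries the flox allele and the stop allele. The Cre control differs from WT by the flox allele, the driver and the mouse line together, and these cannot be told apart. Between the Mib1 mutant and the Cre control Fzd8 differed by 0.22 (SE 0.11, edgeR adjusted p = 0.404).

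In the same control comparison the other receptor genes had values of -0.49 for Fzd4 (edgeR adjusted p = 0.429), -0.24 for Lrp6 (edgeR adjusted p = 0.619) and 0.07 for Fzd2 (edgeR adjusted p = 0.877). Fzd4, Fzd8 and Lrp6 had Cre control pools that were all below WT, where 10.2% of tested genes did. The Cre control pools also serve as controls of the Mib1 mutant and the WT pools of the triple heterozygote, so these comparisons share pools.

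The summed level of Fzd1 to Fzd8 was higher in the Mib1 mutant, and its makeup leaned to Fzd2. The sum was 60.1 ± 1.73 CPM per kb in the Mib1 mutant, 45.0 ± 1.11 in the Cre control, 46.3 ± 3.48 in the triple heterozygote and 46.9 ± 0.572 in WT (SD, n = 3 each). Fzd2 made up 38.0% ± 3.17 of it in the Mib1 mutant, 32.8% ± 0.727 in the Cre control, 31.9% ± 2.46 in the triple heterozygote and 30.1% ± 1.15 in WT. Fzd1 held 27.0%, 28.7%, 27.9% and 26.6%, so these 2 genes together gave 65.1%, 61.5%, 59.7% and 56.6% of the summed Fzd1 to Fzd8 level. Fzd9, with 2.36 CPM per kb over all pools, and Fzd10 were not in the sum. Fzd8 held 5.14% ± 0.168 of the sum in the Mib1 mutant, with 5.91% ± 0.452 in the Cre control, against 9.13% ± 0.356 in the triple heterozygote and 8.21% ± 0.995 in WT. Fzd4 held 9.91%, 9.87% and 9.53% in the Mib1 mutant, the Cre control and the triple heterozygote and 13.4% ± 1.43 in WT. The sum and the shares rest on exonic length and would differ by coding length, which moved Fzd4 from rank 5 to rank 3 over all pools. These shares describe the pools and were not tested.

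**Figure D4:**
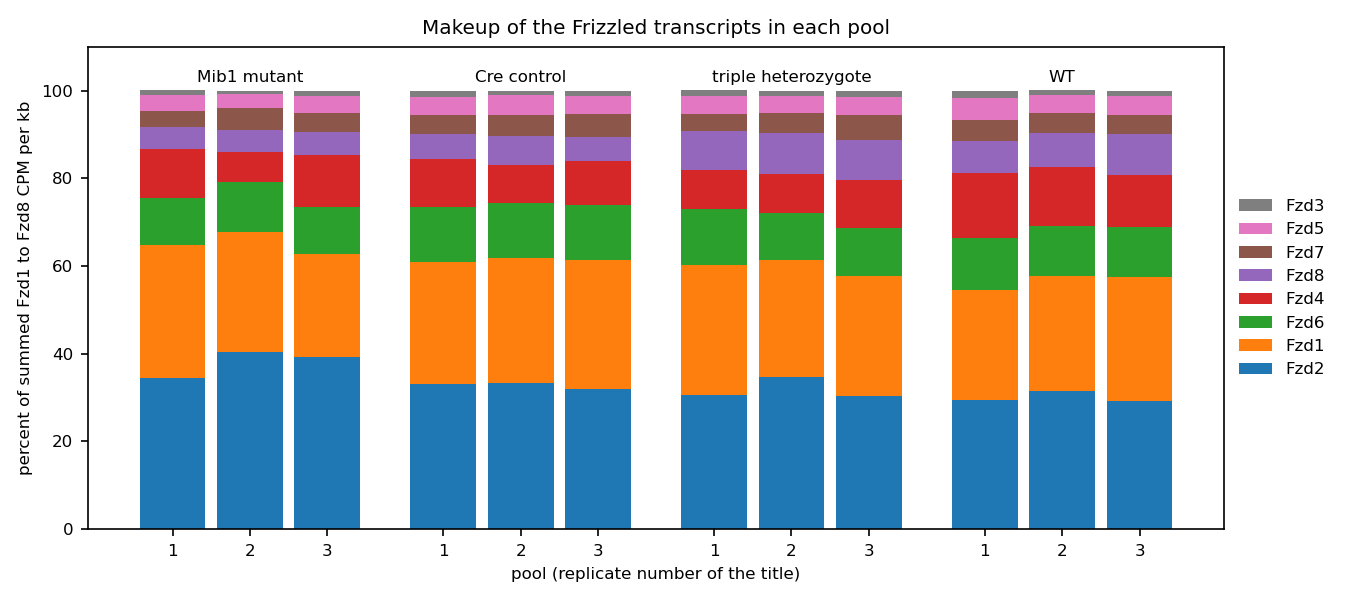
Share of each Frizzled gene in the summed Fzd1 to Fzd8 level per length (percent, 1 bar per pool). The Fzd2 segment is 34.5% to 40.5% in the Mib1 mutant pools and 31.9% to 33.3% in the Cre control pools, and the Fzd8 segment is wider in the triple heterozygote and WT pools.

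The other genes of the pathway were read from lists arranged by role. Of 20 ligands 10 were tested. None passed in the Mib1 mutant in edgeR, DESeq2 or limma-voom or had an unadjusted p under 0.05. Of the 10, 7 were positive (median log2 fold change 0.13). Wnt5a, a ligand of the branch without beta-catenin that can bind Fzd2, had 40.5, 29.8 and 35.8 CPM in the Mib1 mutant and 38.4, 31.1 and 38.5 CPM in the Cre control (-0.03, 95% interval -0.27 to 0.22). Wnt5b had a value of 0.16 (-0.26 to 0.58). Of the other Frizzled-class receptors, Fzd9 had 5.23, 5.5 and 7.67 CPM in the Mib1 mutant and 4.93, 4.78 and 4.4 CPM in the Cre control (0.39, SE 0.19, edgeR adjusted p = 0.39), and Smo, the Hedgehog transducer, had a value of 0.15 (edgeR adjusted p = 0.436). Fzd10 was not tested.

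Alternative Wnt receptors and polarity proteins were measured in 12 of 14 cases. None passed in the Mib1 mutant in edgeR, DESeq2 or limma-voom, and 11 were positive (median 0.16). An unadjusted p under 0.05 was found for 4 of the 12, where 14% of all tested genes had one. Ryk, a kinase-like Wnt receptor and the most abundant of them per length, had 115, 119 and 117 CPM in the Mib1 mutant and 116, 115 and 111 CPM in the Cre control (0.03, 95% interval -0.09 to 0.16). Prickle1, a polarity protein of the cell cortex, had a value of 0.1 (-0.08 to 0.27). Among 10 tested relatives of Lrp5 and Lrp6 in the LDL receptor family none passed in these tools, and 7 were positive (median 0.06). Of these 10, 1 had an unadjusted p under 0.05, beside the same 14% of all tested genes. Vldlr, a lipoprotein and reelin receptor, had a value of -0.06 (-0.27 to 0.15) and Lrp10 of 0.05 (-0.13 to 0.23).

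Of 19 tested genes for receptor turnover, trafficking and surface presentation, edgeR called 1 in the Mib1 mutant, where it called 1.5% of all genes. DESeq2 called 2 of the 19, where it called 417 of all 13964 tested genes, and limma-voom called 1. An unadjusted p under 0.05 was found for 6 of the 19, where 14% of all tested genes had one. Of the 19, 13 were positive (median 0.12). The gene called by edgeR, Gpc6, rose. This glypican, a heparan sulphate proteoglycan on the cell surface, had 37.4, 38.3 and 39.0 CPM in the Mib1 mutant and 31.1, 28.3 and 28.5 CPM in the Cre control (0.39, SE 0.08, edgeR adjusted p = 0.0289). In the triple heterozygote it had 25.3, 26.0 and 29.9 CPM and in WT 30.9, 33.9 and 34.2 CPM, and the difference between the effects passed (0.67, SE 0.12, edgeR adjusted p = 0.0188), though not with the long-transcript index in the fit (0.62, edgeR adjusted p = 0.102). Its relatives Gpc3 and Gpc4 had values of 0.11 (edgeR adjusted p = 0.475) and 0.25 (edgeR adjusted p = 0.129) in the Mib1 mutant. The Gpc6 call in the Mib1 mutant was lost with the long-transcript index in the fit (edgeR adjusted p = 0.0547), and without the Mib1 mutant pool 1 or 3 or the Cre control pool 2 or 3 (edgeR adjusted p 0.0598 to 0.131).

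Of 11 antagonists tested, edgeR called 3 higher and 1 lower in the Mib1 mutant (median 0.4), where it called 1.5% of all tested genes. Of the 11, 9 had positive log2 fold changes, where 51.2% of all tested genes did. An unadjusted p under 0.05 was found for 9 of the 11, where 14% of all tested genes had one. DESeq2 called 5 of the 11, where it called 417 of all 13964 tested genes, and limma-voom called 3 of the 11. Wif1, which binds Wnt ligands outside the cell, had 33.2, 38.5 and 35.8 CPM in the Mib1 mutant and 10.3, 18.4 and 18.4 CPM in the Cre control (1.17, SE 0.16, edgeR adjusted p = 0.00132). Dkk3, a divergent Dickkopf, had 68.8, 58.0 and 35.5 CPM in the Mib1 mutant and 22.2, 27.5 and 31.9 CPM in the Cre control (0.98, SE 0.18, edgeR adjusted p = 0.00988). Sost, which binds Lrp5 and Lrp6, was low, at 3.14, 7.83 and 2.67 CPM in the Mib1 mutant and 1.16, 1.42 and 1.08 CPM in the Cre control (1.89, SE 0.44, edgeR adjusted p = 0.0435). Sfrp5, a soluble protein with a Frizzled-like domain, fell, with 0.095, 1.12 and 0.517 CPM in the Mib1 mutant and 3.58, 2.57 and 2.23 CPM in the Cre control (-2.24, SE 0.45, edgeR adjusted p = 0.019). The calls of Dkk3, Sost, Sfrp5 and Gpc6 were lost when only the 6 libraries compared were fitted (edgeR adjusted p 0.0865 to 0.101) and that of Wif1 was not. With 1 of these pools left out, Dkk3 missed the threshold without the Mib1 mutant pool 1 or the Cre control pool 1 (edgeR adjusted p 0.0508 and 0.0563) and Sfrp5 without the Mib1 mutant pool 3 or the Cre control pool 1 or 2 (edgeR adjusted p 0.0727, 0.0787 and 0.0519). Sost missed it without any pool but the Mib1 mutant pool 3 (edgeR adjusted p 0.0502 to 0.159). The abundant Sfrp1 and Igfbp4 had values of 0.32 (edgeR adjusted p = 0.129) and 0.22 (edgeR adjusted p = 0.275), and Apcdd1, which is mutated in the triple heterozygote, had 0.56 (SE 0.18, edgeR adjusted p = 0.141) in the Mib1 mutant and -0.04 (SE 0.18, edgeR adjusted p = 0.961) in the triple heterozygote.

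Downstream of the receptors, 22 intracellular transducers were tested. None passed in the Mib1 mutant in edgeR, DESeq2 or limma-voom. Of the 22, 19 were positive (median 0.1), where 51.2% of all tested genes were. An unadjusted p under 0.05 was found for 2 of the 22, where 14% of all tested genes had one. Ctnnb1, which encodes beta-catenin, had 1030, 928 and 982 CPM in the Mib1 mutant and 900, 846 and 876 CPM in the Cre control (0.16, SE 0.06, edgeR adjusted p = 0.208). Csnk1a1, a kinase of the destruction complex, had a value of 0.04 (95% interval -0.1 to 0.18). Of 8 tested feedback and target genes none passed in these tools or had an unadjusted p under 0.05, with 4 positive and 4 negative (median -0.01). Among them Ccnd1, a cyclin, had a value of 0.06 (-0.08 to 0.21) and Myc of -0.09 (-0.35 to 0.17). In the triple heterozygote against WT and the Cre control against WT, edgeR called 0 genes in each of these 8 pathway lists. DESeq2 and limma-voom did so too. At most 5 genes of a list had an unadjusted p under 0.05, those for turnover and trafficking in the triple heterozygote. They were 5 of 19, where 8.66% of all tested genes had such a p in that comparison.

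The genes whose levels ran most like Fzd2 over the 12 libraries were Glipr2, Fstl3, Cacna1g, Thbs4 and Limk2, ranked by Pearson's r of log2 CPM among 10533 genes. The r was 0.978 for Glipr2, 0.974 for Fstl3, 0.958 for Cacna1g, 0.95 for Thbs4 and 0.95 for Limk2, where the median over all ranked genes was 0.01. The points share the step between the Mib1 mutant and the other genotypes. Over the 9 libraries outside the Mib1 mutant the r was 0.79 for Glipr2, 0.71 for Fstl3, 0.6 for Cacna1g, 0.25 for Thbs4 and 0.83 for Limk2. Fstl3 encodes a secreted binder of activins, Cacna1g a T-type calcium channel, Thbs4 a matrix thrombospondin and Limk2 a kinase that acts on cofilin.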

How the data were processed

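Libraries of polyA RNA kept the strand and were read once for 60 bases, per the labels' protocols. GRCm38, RSEM, cutadapt, limma and bcl2fastq 2.20.0.422 appear in the submitters' processing notes without roles. Aligner and annotation: not given in the sources used here. Expected counts, which are estimated reads per gene, were deposited by the authors, 9.64% of them not whole because reads shared between genes are divided. Columns were matched to samples by name. The columns called mutant name neither flox nor Cre and were taken as the triple heterozygote.

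The test on rounded values was the two-sided quasi-likelihood F test of edgeR 4.0.16 (R 4.3.3; TMM, filterByExpr), with 12 libraries in 1 fit of 4 groups and 8 residual degrees of freedom. The threshold was a Benjamini-Hochberg adjusted p of 0.05 over 13964 genes. Symbols, positions and lengths came from GENCODE M21, which held 36429 of the 38293 genes. SE is the log2 fold change divided by the square root of F. 1 read corresponds to 0.0452 to 0.0991 CPM.

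The genes and pathway lists were chosen with earlier results of these data known. The text names all 10 receptor genes, the called genes and the 2 most abundant per length of each pathway list, the 5 genes most like a called receptor (mean of at least 5 CPM), Mib1 and Apcdd1. Asxl3, also in that rule, did not pass in any comparison. Alternatives were RLE scaling, no filter, a mean CPM of 2, DESeq2 1.42.0, limma-voom 3.58.1, only the libraries compared, a replicate block, pools of 1 sex left out and each replicate left out. The pools of 1 sex were the Mib1 mutant pool 1 and the Cre control pool 1, which had almost no Xist. Whether any other pool held 1 sex was not tested. Added after seeing the data were the long-transcript index, coding length, and library sizes without erythroid and cardiomyocyte markers. The procedure was tested on simulated data. Changes of 0.5 log2 were recovered in 56.7% of changed genes for the Mib1 mutant against the Cre control. The share was 53.7% for the triple heterozygote against WT, 52.2% between the controls and 16.4% for the difference between effects. For changes of 1 log2 it was 82.1% to 89.6%. No pair of replicates was alike within counting error, so none was counted as a duplicate.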

Additional observations from a re-analysis of the deposited data

Results flagged for a closer look

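The effects in the Mib1 mutant (over its Cre control) and the triple heterozygote (over WT) differed for 3 pathway genes by the test of the difference itself, in edgeR adjusted over all genes. For Wif1 the difference was 1.29 log2 (SE 0.23, edgeR adjusted p = 0.0217), from 1.17 in the Mib1 mutant and -0.11 in the triple heterozygote. For Dkk3 it was 1.31 (SE 0.26, edgeR adjusted p = 0.0341), from 0.98 in the Mib1 mutant and -0.33 in the triple heterozygote. For Gpc6 it was 0.67 (SE 0.12, edgeR adjusted p = 0.0188), from 0.39 in the Mib1 mutant and -0.29 in the triple heterozygote. With 1 pool left out in turn, the Dkk3 call was lost in 9 of 12 fits, the Gpc6 call in 7 and the Wif1 call in 5 (edgeR adjusted p up to 0.118, 0.0735 and 0.0851). With the long-transcript index in the fit, Gpc6 (adjusted p = 0.102) and Dkk3 (adjusted p = 0.112) lost their calls, and Dkk3 also did in limma-voom (adjusted p = 0.0586) and with pools of 1 sex left out (adjusted p = 0.156). No receptor gene passed the threshold for the difference in the main edgeR fit, where Fzd2 had 0.55 (edgeR adjusted p = 0.0773). Fzd2 or Fzd4 passed in some of the alternatives. In the main fit 5 of 10 had an unadjusted p under 0.05, where 13.8% of tested genes did. With the index in the fit, edgeR's unadjusted p was 0.000623 for Fzd2 and 0.0928 to 0.571 for the others, Fzd4, Fzd6, Lrp5 and Lrp6.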

How the results depend on the processing

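Fzd2 in the Mib1 mutant stayed past the threshold in every alternative, with log2 fold changes of 0.60 to 0.67 when 1 pool was left out and 0.62 to 0.68 otherwise. The number of receptor genes called in the Cre control against WT was 1 (Fzd8) with RLE scaling, no filter, DESeq2 or the replicate block. For the difference between effects it was 2 with no filter or DESeq2 and 1 with the replicate block (Fzd2, 0.56, edgeR adjusted p = 0.0365). With 1 pool left out it was 1 to 2 in the Mib1 mutant (2 without the Mib1 mutant pool 2 or 3) and 0 to 1 for the difference. The replicate numbers were not used to pair the pools in the main fit. Same-numbered pools deviated together with r of 0.01 to 0.17 for the Mib1 mutant and the Cre control. The r was -0.06 to 0.09 for the triple heterozygote and WT and -0.09 to 0.06 for the Cre control and WT. Of 6 pools, 4, 2 and 2 correlated best with their own number. In both the Mib1 mutant and the Cre control, pool 1 had almost no Xist and pool 2 had the lowest long-transcript index. These values do not settle whether the numbers pair the pools of these groups.

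Called genes over the whole table numbered 476, 54, 144 and 246 with no filter, in place of 210 in the Mib1 mutant, 3 in the triple heterozygote, 39 between controls and 72 for the difference, and 417, 28, 82 and 167 with DESeq2. With only the libraries compared they were 93, 10 and 68 in the first 3 comparisons, and with the block 318, 59 and 109 (Mib1 mutant, controls, difference). With pools of 1 sex left out they were 110, 7 and 41 (Mib1 mutant, triple heterozygote, difference), with the index 41 for the difference, and without the marker genes 1 in the triple heterozygote. With 1 pool left out they ranged over 116 to 415, 1 to 3, 23 to 42 and 28 to 233. With pools of 1 sex left out, Dkk3, Sfrp5, Sost and Gpc6 lost their call in the Mib1 mutant (edgeR adjusted p 0.086 to 0.155), and in limma-voom Sost did.

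Some values that had not passed changed sign, and the cause was not tested. With the index as a covariate, Fzd3 was -0.05 in the Mib1 mutant (0.34 without it), 0.33 in the triple heterozygote (-0.08 without it), 0.22 between controls (-0.24 without it) and -0.38 for the difference (0.42 without it). Lrp5 was 0.05 in the triple heterozygote and 0.06 between controls, Lrp6 0.02 between controls (-0.24 without it) and Sost -0.33 in the triple heterozygote. With limma-voom, Sfrp5 was 0 and Sost -0.03 in the triple heterozygote. With 1 pool left out, the range in the triple heterozygote was -0.05 to 0.16 for Fzd2, -0.19 to 0.1 for Fzd3, -0.05 to 0 for Fzd6, -0.12 to 0.21 for Fzd7, -0.11 to 0.02 for Lrp5, -0.23 to 0.14 for Sfrp5 and -0.25 to 0.39 for Sost. It was -0.05 to 0.1 for Fzd7 between controls, and for the difference -0.02 to 0.15 for Fzd8 and -0.14 to 0.04 for Mib1. The planned length from RefSeq proteins was not run. Fzd3 had the fewest reads of the 10 receptor genes, and 3 pools a group limit every test.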
